A study of Homo sapiens with 8 samples.

Results

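Repeat libraries were set against each other to describe which genes differed between replicate 2 and replicate 1 when the treatment stayed the same. The comparison used 4 of the 8 libraries of a ribosome profiling series in 293T cells: replicate 2 of the miRNA inhibitors and replicate 2 of their negative control were set against replicate 1 of the miRNA inhibitors and replicate 1 of that control. Libraries were chosen by the replicate number in their titles, and treatment was kept as a block, so each replicate 2 was read against the replicate 1 of its own treatment. Ribosome profiling sequences the mRNA stretches that ribosomes shield from digestion, and counts here are ribosome footprints summed over each gene.

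All groups were 293T cells, which descend from human embryonic kidney and carry adenoviral E1 genes and the SV40 large T antigen, grown in high-glucose medium with serum and lysed with cycloheximide, which holds ribosomes in place. The inhibitor arm held cells with miRNA inhibitors and cells with a control for inhibitors. The other arm held cells given shNBD1, a non-cleaving short hairpin RNA, and cells with a control for shRNA, and served to size the replicate difference elsewhere in the series. The labels do not name the miRNAs inhibited, do not spell out NBD1 and do not say whether a replicate is a separate culture or a separate preparation. P-values of the main test set the replicate difference against how far it departs between inhibitors and control, with spread borrowed across genes. They do not measure a spread between separate cultures, and the spread may be a technical one. Libraries of total RNA were not used here, so fewer messages and fewer ribosomes per message cannot be told apart. A culture, a transfection or a library preparation shared by the libraries with number 2 cannot be told apart either.

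Total counts were 11218980 with inhibitors and 19854218 in their control for replicate 2, and 15637644 with inhibitors and 19050037 in their control for replicate 1. The CPM values below, which divide a gene's count by the size of its library, are scaled by TMM, a method that removes differences in composition between libraries. The 293T markers VIM, KRT8, KRT18, CDH2 and SOX4 were between 173 and 3548 CPM in all 4 libraries, while NEFM and PAX2 stayed between 1.22 and 3.16 CPM and NEFL was not listed. The 10 markers summed to 6076 and 6078 CPM in the replicate 2 libraries of inhibitors and control, against 5547 and 5106 CPM in replicate 1. VIM, at 3050 to 3548 CPM, gave most of that sum, while SOX4 and PAX2 were lower in replicate 2 in both treatments. In the main test below 3 of the 9 tested markers were called higher (INA, KRT8 and KRT18) and 1 lower (SOX4), beside 10.9% and 8.34% of all genes. Markers of other cell types summed to 632 and 673 CPM in replicate 2, against 580.3 and 664 CPM in replicate 1, with ACTA2 giving most of the sum and PTPRC, CD3E, ALB, HBB and KRT5 at or below 0.304 CPM. The feature named ZNF354B held 8.40% and 7.18% of the counts in replicate 2, against 4.85% and 5.72% in replicate 1. Its replicate difference was 0.64 ± 0.10 on the log2 scale (SE, adjusted p = 2.88e-06), and leaving it out together with ST8SIA1 and the MTRNR2L genes, which also take many reads, ended no call of the leading genes below.

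Several of the genes described below respond to how cells are attached, stretched and fed. YAP and TAZ are transcriptional coactivators that enter the nucleus when cells spread or the cytoskeleton is under tension, and act through TEAD factors on genes such as CCN2 and ANKRD1. SRF, together with actin-sensing cofactors, drives genes of the actin cytoskeleton and, with growth factor signals, the immediate early genes. Sterol synthesis genes follow SREBP2, which is released when sterols in the endoplasmic reticulum run low, and messages of ribosomal proteins carry a start motif that couples their translation to growth signalling through mTOR.

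The 250 bases before the transcription start of 3 genes called higher in replicate 2 are shown as examples. They come from the YAP and TAZ targets (9 of 23 called higher) and the SRF and actin targets (17 of 26). All 3 windows hold the motif named for them below, which most windows of their lists do not. CCN2 and ANKRD1 were among the 15 leading higher genes and CNN2 was not. Windows of CCN1, TAGLN and KRT17 were not in the source used here. The windows shown come from RefSeq on GRCh38.p14, and the capitals mark matches to CATTCC, the core of the TEAD motif, on either strand in CCN2 and ANKRD1 and to the CArG box, the SRF motif, in CNN2. The CCN2 window is chr6:131951373-131951622 on the minus strand, the ANKRD1 window chr10:90921088-90921337 on the minus strand and the CNN2 window chr19:1026358-1026607 on the plus strand.
CCN2: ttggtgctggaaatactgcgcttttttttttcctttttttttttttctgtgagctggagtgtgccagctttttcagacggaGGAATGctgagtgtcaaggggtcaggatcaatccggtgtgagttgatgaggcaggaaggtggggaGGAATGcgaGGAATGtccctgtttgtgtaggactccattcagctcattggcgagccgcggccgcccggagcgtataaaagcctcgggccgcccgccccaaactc
ANKRD1: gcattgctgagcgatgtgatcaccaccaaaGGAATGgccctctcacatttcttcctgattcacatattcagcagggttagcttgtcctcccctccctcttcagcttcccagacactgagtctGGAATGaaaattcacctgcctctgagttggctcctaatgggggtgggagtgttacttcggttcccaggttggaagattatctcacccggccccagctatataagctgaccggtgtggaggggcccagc
CNN2: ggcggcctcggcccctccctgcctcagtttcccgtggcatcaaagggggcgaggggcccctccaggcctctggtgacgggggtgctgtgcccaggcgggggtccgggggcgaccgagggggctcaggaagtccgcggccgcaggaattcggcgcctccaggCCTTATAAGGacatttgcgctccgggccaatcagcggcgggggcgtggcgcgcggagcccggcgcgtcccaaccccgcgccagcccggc
The CCN2 window holds 3 matches, whose first bases lie 169, 104 and 95 bases before the start, the ANKRD1 window 2 matches at 220 and 128 bases, and the CNN2 window 1 CArG box at 89 bases. No match of either motif overlapped one of the other. CATTCC on either strand was present in 11.9% of all 35116 promoter windows of this length and in 9.80% of the windows of tested genes, and a CArG box in 1.16% and 1.14%. Of the 19 YAP and TAZ targets with a window, 6 held CATTCC (31.6%), and none held a CArG box. Of the 24 SRF and actin targets with a window, 5 held a CArG box (20.8%) and 6 held CATTCC (25%). A match says only that these letters are in the window.

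Replicate 2 differed from replicate 1 in 2548 of 13263 tested genes (19.2%) at an adjusted p under 0.05 in edgeR's quasi-likelihood test. Of these, 1442 genes (10.9%) were higher in replicate 2 and 1106 (8.34%) were lower. The changes were small for the most part: the median called gene differed by 1.24-fold, 74 genes were higher by 2-fold or more and 7 were lower by 2-fold or more. The median over all tested genes was -0.00 on the log2 scale. In 2538 of the 2548 called genes the inhibitor pair (inhibitors 2 against inhibitors 1) and the control pair (control 2 against control 1) moved the same way, as did 9347 of all 13263 genes (70.5%), a share that the block design favours among called genes. Replicate 2 lay above replicate 1 in both libraries, without overlap, in 2906 genes (21.9%) and below it in 2896 (21.8%).

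These counts rest on the treatment block and on the test used. Without the block, so that the spread between inhibitors and control counted as error, no gene was called (775 higher and 425 lower at an unadjusted p under 0.05). DESeq2 called 268 higher and 93 lower, a split of 74.2% to 25.8% against 56.6% to 43.4% in edgeR, and all of them were among edgeR's calls. Without 1 library, where only the other pair carries the replicate difference and its spread comes from the shRNA arm, between 1026 and 1256 genes were higher and between 721 and 878 were lower, with 1026 and 761 without control 1, 1046 and 721 without control 2, 1196 and 878 without inhibitors 1 and 1256 and 859 without inhibitors 2.

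**Figure D1:**
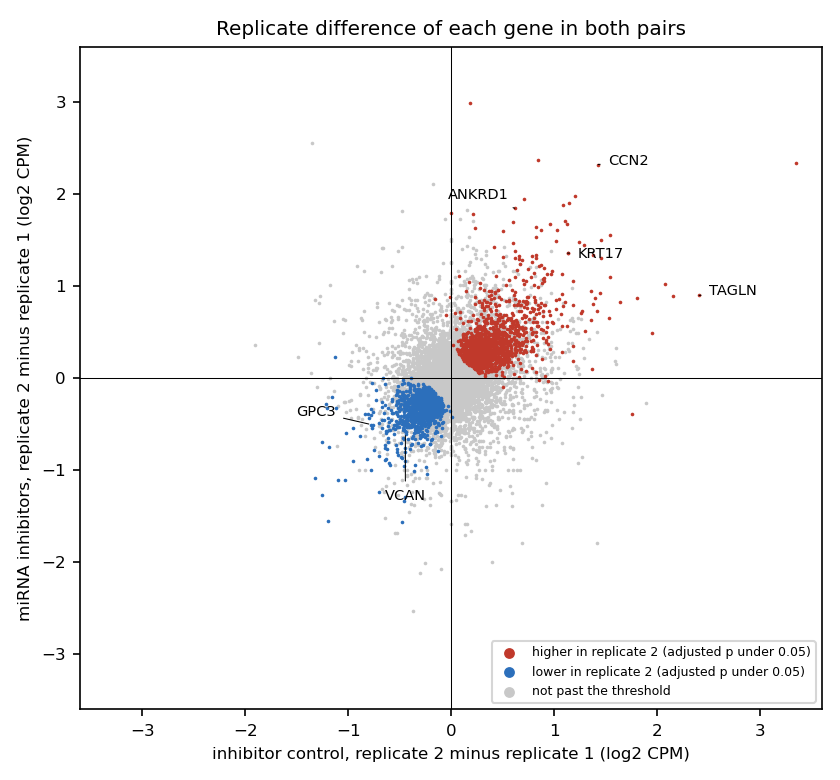
Each point is 1 of the 13263 tested genes, placed by the log2 CPM of replicate 2 minus replicate 1 in the inhibitor control (x axis) and with miRNA inhibitors (y axis); red genes were called higher in replicate 2, blue genes lower, grey genes did not pass the threshold. The called genes lie along the rising diagonal, with CCN2 at 1.43 in the control pair and 2.32 in the inhibitor pair, TAGLN at 2.41 and 0.90, and GPC3 at -0.76 and -0.51.

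CCN2, a matricellular protein and a standard readout of YAP and TEAD (gene at chr6:131948176-131951372), had the smallest p of all genes. It stood at 677 CPM in inhibitors 2 against 135 CPM in inhibitors 1, and at 99.4 CPM in control 2 against 36.9 CPM in control 1. Replicate 2 was higher within each treatment, by 2.32 in the inhibitor pair and 1.43 in the control pair on the log2 scale, although control 2 lay below inhibitors 1, so the replicate groups overlap. The fitted difference was 1.94 ± 0.09 (SE, adjusted p = 4.18e-22). ANKRD1, an ankyrin repeat protein also driven by YAP and TEAD, had 125 CPM in inhibitors 2 against 34.6 CPM in inhibitors 1, and 24.5 CPM in control 2 against 15.9 CPM in control 1. ANKRD1 differed by 1.35 ± 0.12 (adjusted p = 1.54e-12). CCN1, the sister gene of CCN2, had 229.7 CPM in inhibitors 2 against 70.5 CPM in inhibitors 1, and 59.5 CPM in control 2 against 39.3 CPM in control 1 (1.20 ± 0.10, adjusted p = 1.19e-12). For ANKRD1 and CCN1 the inhibitor pair moved further, by 1.85 and 1.70, than the control pair, by 0.62 and 0.60, and DESeq2 called neither (adjusted p = 0.281 and 0.264). Without 1 library the difference rests on the other pair, judged by the spread of the shRNA arm. It then ran from 0.62 to 1.85 for ANKRD1 and from 0.59 to 1.71 for CCN1. Both genes remained called, which cannot show that the pairs agree.

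The list of YAP and TAZ targets as a whole had 9 of 23 members called higher and none lower, beside 10.9% and 8.34% of all genes, with a median of 0.34 against -0.00 over all tested genes. The median was 0.41 in the inhibitor pair and 0.13 in the control pair. In both pairs 16 members were positive and 4 negative, where 70.5% of all genes moved the same way in both. In 3 members replicate 2 lay below replicate 1 without overlap, and the lowest fitted difference was -0.41. AMOTL2, a scaffold protein that holds YAP in the cytoplasm and is itself a target, was at 45.9 CPM in inhibitors 2 against 19.1 CPM in inhibitors 1, and 21.4 CPM in control 2 against 12.3 CPM in control 1. AMOTL2 differed by 1.04 ± 0.10 (adjusted p = 1.72e-11). THBS1, which encodes the matricellular protein thrombospondin, was called at 0.41 ± 0.07 (adjusted p = 4.19e-05), but its control pair was nearly level, at 145 CPM in control 2 against 137 CPM in control 1, and without either inhibitor library its difference was 0.08 and no longer called (adjusted p up to 0.442). DESeq2 called 4 members and not THBS1 (adjusted p = 0.601). AMOT, a relative of AMOTL2 that is not on the list, went the other way at 171 CPM in inhibitors 2 against 246 CPM in inhibitors 1, and 283 CPM in control 2 against 369.8 CPM in control 1 (-0.45 ± 0.06, adjusted p = 8.29e-08).

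Of the immediate early genes, which are switched on within minutes of a growth or stress signal, 15 of 27 were higher and none lower, beside 10.9% of all genes higher, with a median of 0.43. This list leaned on the inhibitor pair, whose median was 0.66 against 0.22 in the control pair. DESeq2 called 2 members. Below, the inhibitor pair alone stands for a fit with either control library left out. The control pair alone stands for a fit with either inhibitor library left out. Each sets 1 library against 1, judged by the spread of the shRNA arm, so its calls do not measure spread in the inhibitor arm. FOSB and SPRY4, the called members of largest change (edgeR adjusted p = 0.00322 and 0.00234), lost the call without either inhibitor library. Over the 4 libraries left out in turn their differences ran from 1.45 to 2.16 and from 0.90 to 1.63. IER3, an early response gene, was at 30.4 CPM in inhibitors 2 against 12.2 CPM in inhibitors 1, and 12.7 CPM in control 2 against 8.25 CPM in control 1 (1.0 ± 0.12, adjusted p = 1.67e-08). DUSP1, a phosphatase that turns off MAP kinases, was at 118.6 CPM in inhibitors 2 against 58.8 CPM in inhibitors 1, and 55.5 CPM in control 2 against 38.4 CPM in control 1. DUSP1 differed by 0.78 ± 0.07 (adjusted p = 2.91e-11). FOSL1, a partner of JUN, was at 13.1 CPM in inhibitors 2 against 3.74 CPM in inhibitors 1, and 3.80 CPM in control 2 against 3.26 CPM in control 1, and its call (1.12 ± 0.21, adjusted p = 9.36e-05) was lost without either inhibitor library, where its difference was 0.22 (adjusted p up to 0.666). The first members of the class did not pass: EGR1 differed by 0.42 ± 0.16 (adjusted p = 0.0652), FOS by 0.45 ± 0.29 (adjusted p = 0.29) and JUN by 0.06 ± 0.06 (adjusted p = 0.549). In the inhibitor pair alone EGR1 differed by 0.75 and JUN by 0.23, against -0.01 and -0.10 in the control pair alone. With all 4 libraries EGR1 passed in edgeR when ZNF354B, ST8SIA1 and the MTRNR2L genes were left out (adjusted p = 0.048).

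Among the SRF and actin targets 17 of 26 were higher and none lower, beside 10.9% of all genes higher, with a median of 0.27 that was alike in the inhibitor pair (0.27) and the control pair (0.21). TAGLN, the actin-binding protein transgelin, had 49.0 CPM in inhibitors 2 against 26.2 CPM in inhibitors 1, and 40.7 CPM in control 2 against 7.59 CPM in control 1. Replicate 2 lay above replicate 1 in both libraries, with the larger step in the control pair (2.41 against 0.90), and the fitted difference was 1.55 ± 0.14 (adjusted p = 1.75e-12; 0.188 in DESeq2). CNN2, a calponin whose promoter is shown above, was at 62.0 CPM in inhibitors 2 against 35.8 CPM in inhibitors 1, and 35.1 CPM in control 2 against 15.4 CPM in control 1 (0.97 ± 0.08, adjusted p = 1.79e-12). ZYX, the focal adhesion protein zyxin, was at 163 CPM in inhibitors 2 against 95.0 CPM in inhibitors 1, and 103 CPM in control 2 against 75.9 CPM in control 1. ZYX differed by 0.61 ± 0.07 (adjusted p = 1.16e-09). FLNA, which encodes the actin crosslinker filamin A, was at 3022 CPM in inhibitors 2 against 2559 CPM in inhibitors 1, and 3034 CPM in control 2 against 2009 CPM in control 1, higher in both pairs (0.42 ± 0.07, adjusted p = 1.04e-05; 0.0883 in DESeq2). SRF itself differed by 0.21 ± 0.09 and did not pass (adjusted p = 0.102). DESeq2 called 8 members of the list.

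The gene of second smallest p was KRT17, a type I keratin of stressed and basal epithelia (chr17:41619442-41624575). It had 496 CPM in inhibitors 2 against 194 CPM in inhibitors 1, and 179.5 CPM in control 2 against 82.0 CPM in control 1 (1.25 ± 0.06, adjusted p = 1.45e-21). Its steps were nearly equal in the inhibitor pair (1.36) and the control pair (1.13). LAMB3, a chain of laminin-332 that anchors epithelia to the basement membrane, was at 93.1 CPM in inhibitors 2 against 51.5 CPM in inhibitors 1, and 48.4 CPM in control 2 against 27.5 CPM in control 1. LAMB3 differed by 0.83 ± 0.07 (adjusted p = 7.73e-13). EPPK1, the keratin-binding protein epiplakin, was at 239 CPM in inhibitors 2 against 136 CPM in inhibitors 1, and 183 CPM in control 2 against 110.3 CPM in control 1 (0.78 ± 0.06, adjusted p = 3.39e-14). A list of keratins, laminin-332 chains and desmosome proteins was written after these values were seen. It had 11 of 22 members higher and 3 lower, beside 10.9% and 8.34% of all genes. Its median was 0.18, with 7 higher and 1 lower in DESeq2. KRT8 and KRT18, the keratins of simple epithelia that 293T cells express, were higher by 0.38 ± 0.06 (adjusted p = 8.35e-06) and 0.32 ± 0.06 (adjusted p = 3.36e-05).

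The remaining genes that led the higher side encode receptors, secreted proteins and regulators, and MYOF and GADD45B among them are also on the YAP and TAZ list. TNFRSF12A, the receptor of the cytokine TWEAK, was at 52.1 CPM in inhibitors 2 against 14 CPM in inhibitors 1, and 14.9 CPM in control 2 against 6.92 CPM in control 1. TNFRSF12A differed by 1.58 ± 0.12 (adjusted p = 1.39e-14). MYOF, the membrane repair protein myoferlin, was at 46.7 CPM in inhibitors 2 against 18.8 CPM in inhibitors 1, and 12.6 CPM in control 2 against 4.53 CPM in control 1. MYOF differed by 1.37 ± 0.10 (adjusted p = 3.39e-14). TFPI2, a secreted protease inhibitor, was at 99.6 CPM in inhibitors 2 against 39.2 CPM in inhibitors 1, and 27.0 CPM in control 2 against 15.2 CPM in control 1 (1.13 ± 0.09, adjusted p = 3.39e-14). GADD45B, a stress-induced regulator of kinase signalling, was at 43.8 CPM in inhibitors 2 against 15.6 CPM in inhibitors 1, and 10.9 CPM in control 2 against 5.29 CPM in control 1. GADD45B differed by 1.33 ± 0.11 (adjusted p = 7.73e-13). In these 4 genes control 2 lay within 1 CPM of inhibitors 1 or below it, so the order of the libraries followed treatment as well as replicate number. USB1, an exonuclease that trims U6 RNA, moved more in the control pair, with 65.3 CPM in control 2 against 25.1 CPM in control 1 and 78.8 CPM in inhibitors 2 against 45.1 CPM in inhibitors 1 (1.09 ± 0.08, adjusted p = 2.76e-14). ACTBL2, an actin-like gene close in sequence to the actins, was higher by 0.75 ± 0.06 (adjusted p = 6.85e-13), and how reads that match several genes were counted is not given in the sources used here.

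**Figure D2:**
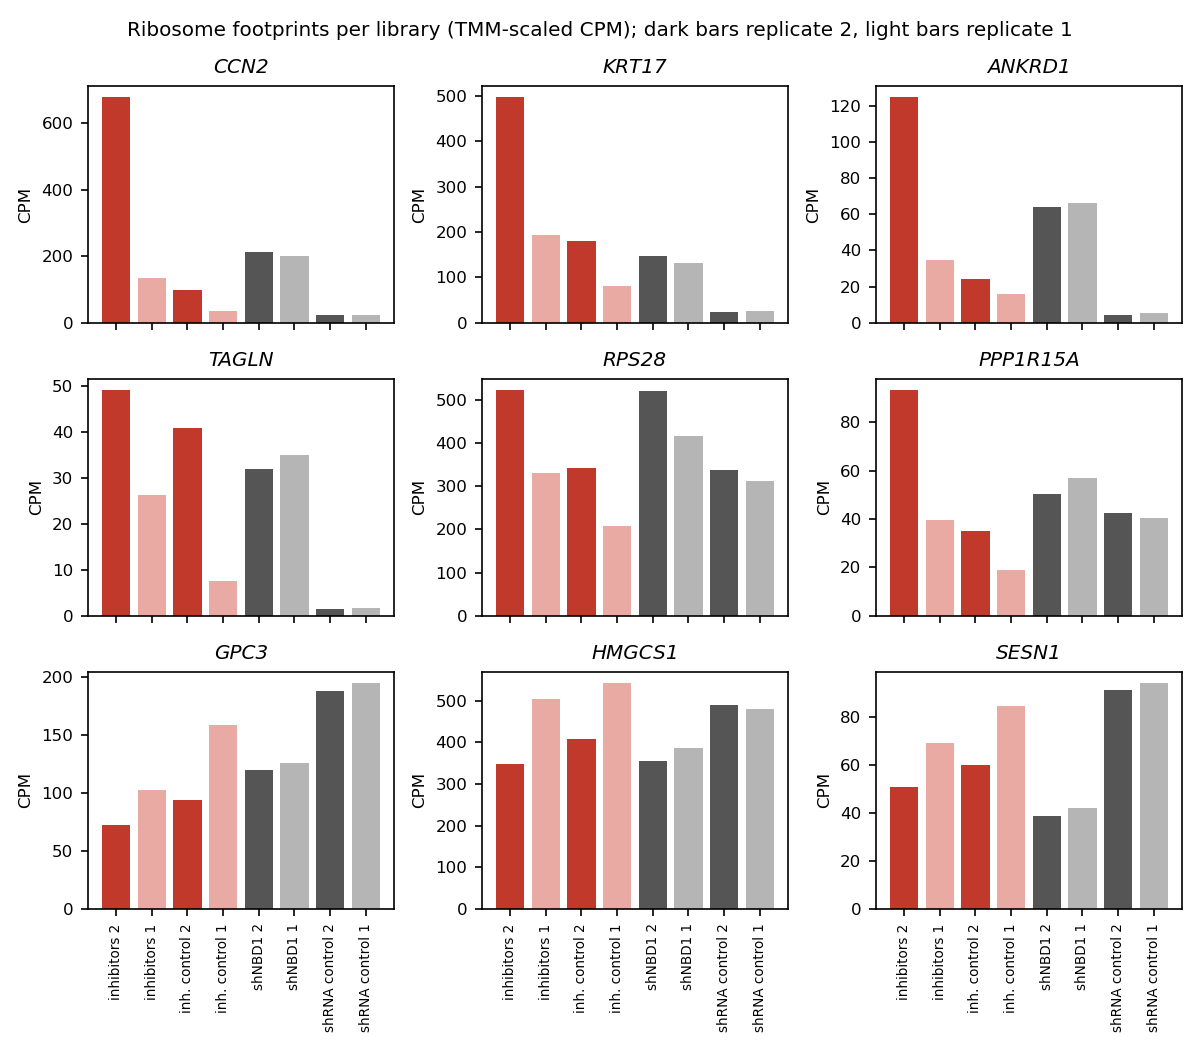
TMM-scaled CPM of 9 genes (1 panel each, y axis from 0) in every library, with red bars for the inhibitor arm, grey bars for the shRNA arm, dark bars for replicate 2 and light bars for replicate 1. In CCN2 and ANKRD1 inhibitors 2 stands far above the other libraries of its arm, TAGLN and RPS28 step up in both pairs, GPC3, HMGCS1 and SESN1 step down in both pairs, and the 2 libraries of each shRNA group lie close together, RPS28 with shNBD1 being the widest of them (519.7 CPM in replicate 2 against 417 CPM in replicate 1).

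Ribosome components were higher together. Of 75 cytosolic ribosomal proteins 49 were called higher and none lower, beside 10.9% and 8.34% of all genes. In 69 of them both pairs were positive and in 2 both were negative, where 70.5% of all genes moved the same way, up or down, in both. The median was 0.20 (0.21 in the inhibitor pair, 0.18 in the control pair). RPS28, a small subunit protein of very short coding sequence, was at 522 CPM in inhibitors 2 against 330.3 CPM in inhibitors 1, and 341 CPM in control 2 against 207 CPM in control 1, without overlap. RPS28 differed by 0.69 ± 0.06 (adjusted p = 4.01e-13). RPS9 and RPL8 were higher by 0.47 ± 0.06 (adjusted p = 9.62e-08) and 0.40 ± 0.06 (adjusted p = 1.83e-06). Not every ribosomal protein took part: RPL3 differed by 0.09 ± 0.06 (adjusted p = 0.332) and RPL41 by -0.10 ± 0.06 (adjusted p = 0.238). The 49 calls became 29 in DESeq2 and between 52 and 58 without 1 library, with 1 member lower without either control library. Many ribosomal proteins have processed pseudogenes, and how such reads were assigned is not given in the sources used here.

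Genes that build the ribosome moved the same way in a list written after these values were seen. It had 22 of 38 higher and none lower, beside 10.9% and 8.34% of all genes, with a median of 0.23. MYBBP1A, a nucleolar protein of the rDNA transcription machinery, was at 350.3 CPM in inhibitors 2 against 232 CPM in inhibitors 1, and 282 CPM in control 2 against 185 CPM in control 1, nearly the same step in each. MYBBP1A differed by 0.60 ± 0.06 (adjusted p = 2.84e-11). RRS1 and RRP12, which assemble and export ribosomal subunits, were higher by 0.70 ± 0.08 (adjusted p = 1.50e-09) and 0.58 ± 0.06 (adjusted p = 5.93e-10). CCDC86, a nucleolar protein, was at 153 CPM in inhibitors 2 against 82.1 CPM in inhibitors 1, and 74.0 CPM in control 2 against 48.4 CPM in control 1 (0.76 ± 0.07, adjusted p = 1.70e-12). DESeq2 called 14 of this list.

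Mitochondrial ribosomal proteins had 29 of 78 higher and 2 lower (median 0.14), led by MRPS24 at 69.3 CPM in inhibitors 2 against 45.8 CPM in inhibitors 1, and 57.4 CPM in control 2 against 36.8 CPM in control 1 (0.62 ± 0.07, adjusted p = 3.95e-09), of which 6 higher calls were left in DESeq2. The translation factors had 12 of 38 higher and 1 lower (median 0.10). Here EEF1A2, the tissue-restricted form of the elongation factor that delivers tRNAs, was at 473 CPM in inhibitors 2 against 353 CPM in inhibitors 1, and 477 CPM in control 2 against 319 CPM in control 1 (0.50 ± 0.06, adjusted p = 4.63e-09). EEF2, the translocase of elongation, was at 5536 CPM in inhibitors 2 against 4175 CPM in inhibitors 1, and 4437 CPM in control 2 against 3508 CPM in control 1 (0.37 ± 0.07, adjusted p = 4.17e-05). DESeq2 called 6 translation factors higher. In both genes replicate 2 lay above replicate 1 in all libraries. Of the aminoacyl-tRNA synthetases 3 of 20 were higher (median 0.09), near the 10.9% of all genes, and of the spliceosome 10 of 40 were higher (median 0.05; 4 in DESeq2), with SNRNP70, the 70K protein of the U1 particle, at 398 CPM in inhibitors 2 against 288 CPM in inhibitors 1, and 391.6 CPM in control 2 against 274 CPM in control 1 (0.49 ± 0.06, adjusted p = 4.63e-09).

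Stress programmes were uneven, and their counts stand beside 10.9% of all genes higher and 8.34% lower. Targets of ATF4, the factor of the integrated stress response, had 11 of 23 higher and 2 lower with a median of 0.26, which became 4 and 1 in DESeq2, 7 or 8 and 1 without 1 library. NUPR1, the called member of largest change (1.18 ± 0.39, edgeR adjusted p = 0.0267), was at 1.62 CPM or less in every library of the arm. NUPR1 and CEBPB (0.82 ± 0.16, edgeR adjusted p = 0.000205) lost the call without either control library. Over the 4 libraries left out in turn their differences ran from 0.70 to 1.52 and from 0.58 to 1.10. SLC7A5, the leucine carrier, was at 37.3 CPM in inhibitors 2 against 21.3 CPM in inhibitors 1, and 28.0 CPM in control 2 against 17.0 CPM in control 1 (0.76 ± 0.09, adjusted p = 4.63e-09). ATF4 itself was at 150.2 CPM in inhibitors 2 against 118.7 CPM in inhibitors 1, and 132 CPM in control 2 against 103 CPM in control 1 (0.35 ± 0.06, adjusted p = 2.38e-05). ATF5, a related factor, was at 11.4 CPM in inhibitors 2 against 6.48 CPM in inhibitors 1, and 10.6 CPM in control 2 against 5.6 CPM in control 1 (0.87 ± 0.14, adjusted p = 8.53e-06). ASNS, the asparagine synthetase that is among the best known targets, differed by 0.01 ± 0.06 (adjusted p = 0.966). PPP1R15A, the subunit that directs a phosphatase to dephosphorylate eIF2 alpha, is not on that list and was among the 15 leading higher genes; it was at 93.2 CPM in inhibitors 2 against 39.6 CPM in inhibitors 1, and 34.8 CPM in control 2 against 19.0 CPM in control 1. PPP1R15A differed by 1.07 ± 0.08 (adjusted p = 2.76e-14).

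Of the NRF2 targets, which answer oxidative stress, 7 of 19 were higher and none lower (median 0.12), and DESeq2 called 4. OSGIN1, the called member of largest change, and SRXN1 (edgeR adjusted p = 0.0076 and 0.023) lost the call without either inhibitor library. Over the 4 libraries left out in turn their differences ran from 1.19 to 1.87 and from 0.39 to 0.67. FTL, the ferritin light chain, was at 74.2 CPM in inhibitors 2 against 45.8 CPM in inhibitors 1, and 53.6 CPM in control 2 against 38.5 CPM in control 1 (0.58 ± 0.07, adjusted p = 2.63e-08). HMOX1, which breaks down heme, was at 60.1 CPM in inhibitors 2 against 43.3 CPM in inhibitors 1, and 48.9 CPM in control 2 against 33.5 CPM in control 1 (0.51 ± 0.07, adjusted p = 8.68e-07). Of the HSF1 chaperones 7 of 25 were higher and none lower (median 0.10), and DESeq2 called 2. The near-identical genes HSPA1A and HSPA1B, which encode inducible HSP70 and between which reads may be split, were higher by 0.33 ± 0.06 (adjusted p = 0.000112) and 0.35 ± 0.06 (adjusted p = 4.15e-05). The ER unfolded protein response had 3 of 20 higher (median 0.00), near the 10.9% of all genes, and HSPA5, its ER chaperone, differed by 0.09 ± 0.06 (adjusted p = 0.304).

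**Figure D3:**
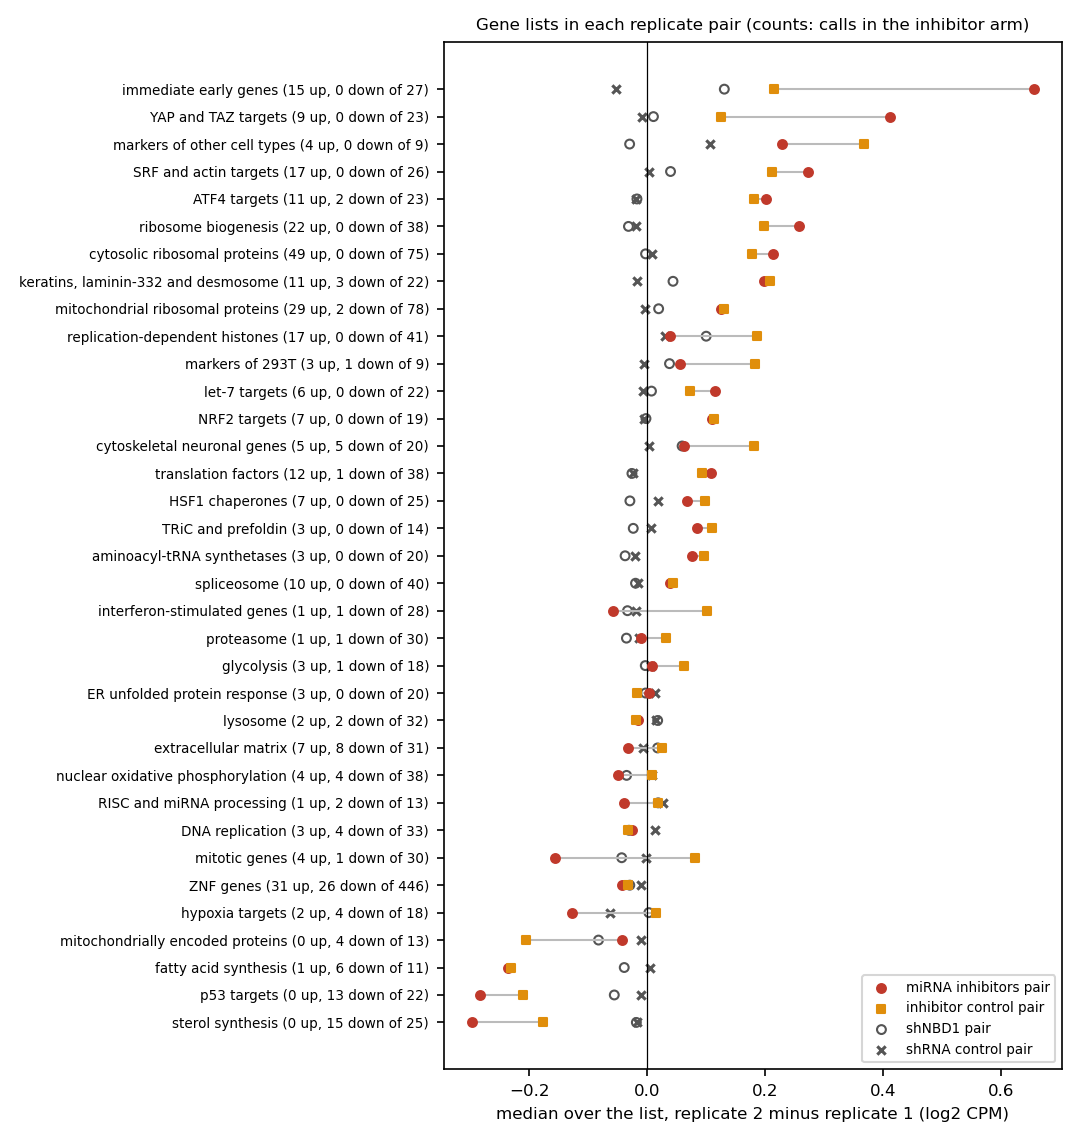
Median log2 CPM of replicate 2 minus replicate 1 over each gene list (x axis) in the miRNA inhibitors pair (red circles), the inhibitor control pair (orange squares), the shNBD1 pair (open circles) and the shRNA control pair (crosses); lists run down the page by their fitted median, with the number of members called in each direction in brackets. Immediate early genes sit at 0.66 in the inhibitor pair and 0.22 in the control pair, sterol synthesis at -0.30 and -0.18, and most medians of the shRNA arm lie near 0.

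On the lower side, 15 of 25 sterol synthesis genes were lower and none higher, beside 8.34% of all genes. In both pairs 23 were negative and 1 was positive. The median was -0.26 (-0.30 in the inhibitor pair and -0.18 in the control pair). HMGCS1, the HMG-CoA synthase of the pathway, was at 347 CPM in inhibitors 2 against 504 CPM in inhibitors 1, and 407 CPM in control 2 against 543 CPM in control 1, without overlap. HMGCS1 differed by -0.47 ± 0.06 (adjusted p = 1.67e-08). IDI1, an isomerase of the same pathway, was lower by 0.49 on the log2 scale (-0.49 ± 0.06, adjusted p = 5.22e-08). INSIG1, which retains SREBP in the endoplasmic reticulum, differed by -0.42 ± 0.07 (adjusted p = 1.90e-05; 0.345 in DESeq2), with 69.3 CPM in inhibitors 2 against 110.4 CPM in inhibitors 1, and 73.5 CPM in control 2 against 84.3 CPM in control 1. The 15 calls became 13 or 14 without 1 library and 4 in DESeq2.

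Of the 11 fatty acid synthesis genes 6 were lower and 1 higher, beside 8.34% and 10.9% of all genes, with a median of -0.23. FADS2, a desaturase that makes polyunsaturated fatty acids, was at 165 CPM in inhibitors 2 against 242 CPM in inhibitors 1, and 236 CPM in control 2 against 326 CPM in control 1 (-0.50 ± 0.06, adjusted p = 4.63e-09). FADS1, the other desaturase of that pathway, was at 99.0 CPM in inhibitors 2 against 124 CPM in inhibitors 1, and 124 CPM in control 2 against 177 CPM in control 1 (-0.43 ± 0.06, adjusted p = 8.23e-07). SCD, the stearoyl desaturase, was at 328 CPM in inhibitors 2 against 491 CPM in inhibitors 1, and 469 CPM in control 2 against 551 CPM in control 1 (-0.40 ± 0.06, adjusted p = 3.74e-06; 0.164 in DESeq2). DESeq2 called 3 members lower.

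Targets of p53 were also lower as a list, in a line where large T antigen binds p53. Of 22 members 13 were lower and none higher, beside 8.34% and 10.9% of all genes. Of these members 17 were negative and 3 positive in both pairs, and the median was -0.25. SESN1, a sestrin that restrains mTOR, was at 50.6 CPM in inhibitors 2 against 69.1 CPM in inhibitors 1, and 60.0 CPM in control 2 against 84.7 CPM in control 1. SESN1 differed by -0.48 ± 0.07 (adjusted p = 3.98e-07). CCNG1, cyclin G1, was at 126.6 CPM in inhibitors 2 against 169 CPM in inhibitors 1, and 162 CPM in control 2 against 212 CPM in control 1 (-0.40 ± 0.06, adjusted p = 1.32e-06). DDB2, a DNA damage sensor, was at 60.0 CPM in inhibitors 2 against 90.2 CPM in inhibitors 1, and 83.8 CPM in control 2 against 105 CPM in control 1 (-0.44 ± 0.07, adjusted p = 1.60e-06). CDKN1A, the cell-cycle inhibitor p21, differed by 0.10 ± 0.06 and did not pass (adjusted p = 0.259). The 13 calls became between 9 and 11 without 1 library and 4 in DESeq2. SESN3, a sestrin driven by FOXO factors and on no list here, was at 60.9 CPM in inhibitors 2 against 85.4 CPM in inhibitors 1, and 56.9 CPM in control 2 against 81.1 CPM in control 1 (-0.50 ± 0.06, adjusted p = 8.87e-08).

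GPC3, a heparan sulfate proteoglycan anchored in the membrane (chrX:133535745-133985594), had the smallest p among the lower genes. It was at 71.8 CPM in inhibitors 2 against 102 CPM in inhibitors 1, and at 93.3 CPM in control 2 against 158 CPM in control 1, without overlap (-0.65 ± 0.06, adjusted p = 9.08e-11). VCAN, the matrix proteoglycan versican, was at 335 CPM in inhibitors 2 against 501 CPM in inhibitors 1, and 471 CPM in control 2 against 642 CPM in control 1 (-0.51 ± 0.06, adjusted p = 3.61e-09). The other lower genes of smallest p were IGFBP5, a secreted binder of insulin-like growth factors (-0.64 ± 0.08, adjusted p = 8.31e-09), MSRB2, a mitochondrial methionine sulfoxide reductase (-0.64 ± 0.09, adjusted p = 2.14e-07), ADD3, a spectrin-binding adducin (-0.53 ± 0.06, adjusted p = 1.83e-08), SMARCA1, an ISWI chromatin remodeller (-0.51 ± 0.06, adjusted p = 6.71e-09), PDCD4, an inhibitor of eIF4A (-0.46 ± 0.06, adjusted p = 1.11e-07), ZNF711, a zinc-finger protein (-0.46 ± 0.06, adjusted p = 2.70e-08), and LRP1, an endocytic receptor (-0.43 ± 0.06, adjusted p = 4.16e-07). All of them were lower in both pairs. Within the extracellular matrix list the directions were mixed, with 7 of 31 higher and 8 lower (5 and 4 in DESeq2), beside 10.9% and 8.34% of all genes. COL1A1, COL12A1 and COL4A1 were higher by 0.70 ± 0.08, 0.49 ± 0.06 and 0.42 ± 0.06 (adjusted p = 3.61e-09, 9.55e-08 and 6.97e-07), while COL2A1 was lower (-0.36 ± 0.06, adjusted p = 6.29e-06).

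In the mitotic list the pairs moved apart. It had 4 of 30 members higher and 1 lower in the joint fit (16.7% called, below the 19.2% of all genes), with a median of -0.04. Its median was -0.16 in the inhibitor pair but 0.08 in the control pair. Of the 30 members 7 were positive in both pairs and 8 negative in both, where 70.5% of all genes moved the same way in both. INCENP, of the chromosomal passenger complex, was at 135 CPM in inhibitors 2 against 116 CPM in inhibitors 1, and 112 CPM in control 2 against 87.8 CPM in control 1 (0.29 ± 0.06, adjusted p = 0.00043; 0.0868 in DESeq2). BIRC5, of the same complex, was at 85.8 CPM in inhibitors 2 against 75 CPM in inhibitors 1, and 81.4 CPM in control 2 against 58.0 CPM in control 1 (0.35 ± 0.07, adjusted p = 0.000145; 0.0875 in DESeq2). The call of BIRC5 was lost without either control library, where its difference was 0.19 (adjusted p up to 0.092).

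Replication-dependent histones had 17 of 41 higher and none lower, beside 10.9% and 8.34% of all genes. Their median was 0.04 in the inhibitor pair and 0.19 in the control pair. H2AC21 was at 310.4 CPM in inhibitors 2 against 219 CPM in inhibitors 1, and 237 CPM in control 2 against 136 CPM in control 1 (0.65 ± 0.06, adjusted p = 2.55e-11). Of the 41 histones 24 were positive in both pairs and 5 negative in both, where 70.5% of all genes moved the same way in both. H2AC18 and H2AC19, nearly identical copies between which reads may be split, were higher by 0.42 ± 0.06 (adjusted p = 8.68e-07) and 0.40 ± 0.06 (adjusted p = 1.82e-06). DNA replication genes lay near the background, with 3 of 33 higher and 4 lower (21.2% called, beside 19.2% of all genes). TYMS, the thymidylate synthase, was at 704 CPM in inhibitors 2 against 814 CPM in inhibitors 1, and 832 CPM in control 2 against 1032 CPM in control 1 (-0.26 ± 0.06, adjusted p = 0.00106).

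Mitochondrially encoded proteins had 4 of 13 lower and none higher, beside 8.34% and 10.9% of all genes. Their median was -0.04 in the inhibitor pair and -0.20 in the control pair. Their share of all counts was 0.136% and 0.145% in the replicate 2 libraries of inhibitors and control, against 0.152% and 0.18% in replicate 1. Of the 13 members 6 were negative in both pairs and 1 positive in both, where 70.5% of all genes moved the same way in both. MT-CO1, a catalytic subunit of cytochrome oxidase, was the called member whose pairs were nearly equal, at 246 CPM in inhibitors 2 against 285 CPM in inhibitors 1, and 301 CPM in control 2 against 339 CPM in control 1 (-0.19 ± 0.06, adjusted p = 0.0126; 0.197 in DESeq2). The MTRNR2L genes, near-copies of mitochondrial 16S rRNA, split by pair, with a median of 0.29 in the inhibitor pair and -0.24 in the control pair.

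Of the other lists, 4 had a smaller share called in either direction than the 19.2% of all genes. The proteasome had 1 of 30 higher and 1 lower (6.67%), interferon-stimulated genes 1 of 28 and 1 (7.14%), the lysosome 2 of 32 and 2 (12.5%), and ZNF genes 31 of 446 and 26 (12.8%). In another 4 calls went both ways: nuclear oxidative phosphorylation had 4 of 38 higher and 4 lower, glycolysis 3 of 18 and 1, hypoxia targets 2 of 18 and 4, and cytoskeletal neuronal genes 5 of 20 and 5. TRiC and prefoldin, which fold newly made actin and tubulin, had 3 of 14 higher (21.4%) and none lower, with 1 higher and 1 lower without either control library. The 31 higher and 26 lower ZNF genes became 1 and 2 in DESeq2, 13 and 10 without either control library, 17 and 20 without inhibitors 1, and 19 and 20 without inhibitors 2. Interferon-stimulated genes had a median of -0.06 in the inhibitor pair and 0.10 in the control pair. Of the genes through which miRNAs act, the RISC and miRNA processing list had 1 of 13 higher and 2 lower (23.1% called), near the 19.2% of all genes. These counts were 2 and 0 without either control library, 0 and 2 without either inhibitor library and 0 and 0 in DESeq2. AGO2, the slicing Argonaute, was at 63.6 CPM in inhibitors 2 against 48.5 CPM in inhibitors 1, and 37.0 CPM in control 2 against 32.3 CPM in control 1 (0.30 ± 0.08, adjusted p = 0.00374), a call lost without either inhibitor library, where its difference was 0.19 (adjusted p up to 0.167), and not made by DESeq2 (adjusted p = 0.293). The let-7 targets had 6 of 22 higher and none lower with a median of 0.12 (2 in DESeq2, 4 without either inhibitor library), beside 10.9% of all genes. CPA4, a carboxypeptidase, was the largest, with 16.2 CPM in inhibitors 2 against 5.67 CPM in inhibitors 1, and 4.67 CPM in control 2 against 1.63 CPM in control 1 (1.52 ± 0.17, adjusted p = 3.61e-09). CCND1, cyclin D1, was at 68.1 CPM in inhibitors 2 against 35.1 CPM in inhibitors 1, and 34.6 CPM in control 2 against 23.0 CPM in control 1 (0.78 ± 0.08, adjusted p = 5.63e-10). Of the markers of other cell types, 4 of 9 tested members were higher: COL1A1, EPCAM, CD68 and GFAP, of which GFAP was at 1.88 CPM or less in every library. EPCAM lost its call without either control library (adjusted p up to 0.411), and GFAP and CD68 without any 1 library (up to 0.264 and 0.419). Their part in the other results was not tested.

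The same 4 libraries also carry the difference between inhibitors and control. The first principal component of the 4 libraries held 62.2% of the variance. On it inhibitors 2 lay at 29.0 and control 2 at -2.01, against inhibitors 1 at -2.19 and control 1 at -24.8. On this component inhibitors 1 and control 2 were next to each other between the extremes. The second, with 21.4% of the variance, set them apart, with control 2 at 16.2 and inhibitors 1 at -15.6. For CCN2 the inhibitors against control difference with replicate number as a block was 2.38 ± 0.09, beside the replicate difference of 1.94, and for KRT17 it was 1.36 ± 0.06 beside 1.25. For GPC3 it was -0.51 ± 0.06 beside -0.65, and for AMOT -0.66 ± 0.06 beside -0.45. Some named genes had a replicate difference with a small treatment difference: SESN3 had 0.08 ± 0.06 for treatment beside -0.50, EEF1A2 0.07 ± 0.06 beside 0.50, SNRNP70 0.05 ± 0.06 beside 0.49 and ATF5 0.14 ± 0.14 beside 0.87. By list, the treatment medians beside the replicate medians were 0.62 beside 0.34 for YAP and TAZ targets, 0.50 beside 0.43 for immediate early genes, 0.20 beside 0.20 for cytosolic ribosomal proteins, 0.01 beside 0.26 for ATF4 targets and -0.13 beside -0.26 for sterol synthesis. Since both come from the same libraries, no test sets them against each other. Inhibitors against control gave 1360 genes higher and 1061 lower with replicate number as a block (10.3% and 8%, or 18.3% in all) and none without it, where 585 and 579 passed at an unadjusted p under 0.05.

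In the shRNA arm the replicate difference called no gene in the edgeR fit of all 8 libraries (0% of 13306), although 361 were higher and 219 lower at an unadjusted p under 0.05. Over the 8091 genes whose mean count was 200 or more, the SD of the log2 replicate difference was 0.227 in the inhibitor pair and 0.212 in the control pair, against 0.125 in the shNBD1 pair and 0.0995 in the shRNA control pair. Set against counting error alone, the chi-square of the 2 libraries per degree of freedom was 22.3 and 15.1, against 2.88 and 1.45. Across these genes, which are not independent replicates and share depth, length and composition effects within a library, the inhibitor pair and the control pair had Pearson's r of 0.69 (Spearman's rho 0.66). The shNBD1 pair had r of 0.31 with the inhibitor pair and 0.34 with the control pair, and the shRNA control pair 0.03 and -0.00.

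The test of the difference itself, the replicate term of the inhibitor arm minus that of the shRNA arm, called 379 genes higher (2.85%) and 173 lower (1.3%), or 4.15% in all. KRT17 had the smallest p, at 1.19 ± 0.10 (SE, adjusted p = 7.84e-07), with 147 CPM in shNBD1 2 against 131 CPM in shNBD1 1, and 22.9 CPM in shRNA control 2 against 26.0 CPM in shRNA control 1. CCN2 followed at 1.90 ± 0.17 (adjusted p = 1.36e-06), with 213 CPM in shNBD1 2 against 202 CPM in shNBD1 1, and 23.5 CPM in shRNA control 2 against 23.6 CPM in shRNA control 1. On the lower side FADS2 differed by -0.51 ± 0.07 (adjusted p = 0.000247) and GPC3 by -0.59 ± 0.08 (adjusted p = 0.000363). All 30 leading genes of the inhibitor arm had a called difference (largest adjusted p = 0.0443, SESN3), which is not separate evidence since they were chosen on the same libraries. Within the shRNA arm RPS28 had a replicate difference of 0.22 ± 0.05 and MRPS24 of 0.39 ± 0.10, neither called, and the difference between arms of MRPS24 was 0.23 ± 0.14 (adjusted p = 0.403). DESeq2 called 74 and 21 genes for this difference.

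**Figure D4:**
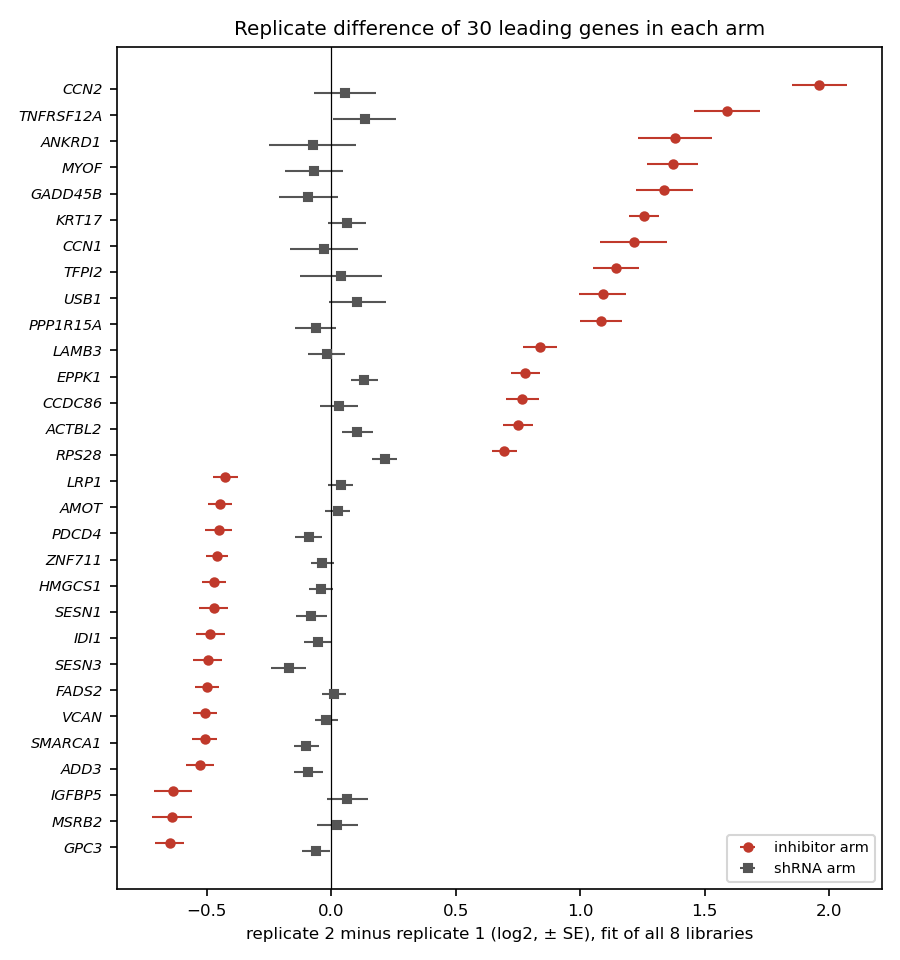
Fitted log2 difference of replicate 2 minus replicate 1 (x axis) with its SE, from the fit of all 8 libraries, for the 30 leading genes in the inhibitor arm (red circles) and the shRNA arm (grey squares), ordered by the inhibitor arm. Inhibitor arm values run from CCN2 on the right to GPC3 at -0.65 on the left, while shRNA arm values lie between -0.17 (SESN3) and 0.22 (RPS28).

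The balance of higher and lower calls varied with the level of a gene. In 5 equal groups of genes by mean level the median replicate difference was 0.09 in the lowest and -0.00 in the highest group, with -0.00, -0.03 and -0.03 between them. Calls were fewest among the genes of lowest level, with 94 higher and 32 lower of 2653. The next group had 224 higher and 110 lower, the middle group 296 and 253, the fourth 349 and 374, where lower calls were the more frequent, and the highest 479 and 337. Of the 155 named genes that were called, 33 lost the call without control 1, 33 without control 2, 22 without inhibitors 1 and 22 without inhibitors 2, and in 2 more the sign turned without either inhibitor library. None of these were among the 30 leading genes. Those 30 were chosen on the same libraries, with the same sign in both pairs. Each fit without 1 library takes its spread from the shRNA arm, whose pairs differed less, as given above. That the leading genes stayed called is therefore not separate evidence.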

How the data were processed

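The authors deposited raw counts of mapped footprints for each feature. The processing notes of the submitters name cutadapt, Bowtie and GRCh38. Their roles and versions, the counter and the rule for reads matching more than 1 gene are not given in any source used here. Features (18037) were summed to 17179 symbols, and a feature a library does not list was taken as 0.

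Replicate 2 was tested against replicate 1 on 4 libraries with treatment as a block, in edgeR 4.0.16 (quasi-likelihood, filterByExpr with minimum count 10 and total 15, TMM; R 4.3.3), with Benjamini-Hochberg adjustment over 13263 genes at 0.05. This leaves 1 residual degree of freedom, which measures how far the replicate difference of the inhibitor pair departs from that of the control pair. The spread is therefore borrowed across genes (47.2 prior degrees of freedom, common biological coefficient of variation 0.0438). The arms were compared in a fit of all 8 libraries with 4 groups and a replicate term per arm (13306 genes, 2 residual degrees of freedom). Differences within a pair are log2 CPM with a prior count of 2. CPM values are shown without error where each library is given.

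Named genes were the 15 called genes of smallest p in each direction with the same sign in both pairs and a mean of at least 50 counts, up to 4 called members of each list with the largest change, and the 6 of smallest p in each direction for the difference between arms. AMOTL2, DUSP1, EGR1, FOS, JUN, FLNA, SRF, RPL3, RPL41, ATF4, ASNS, HSPA5, CCNG1 and CDKN1A were added after their values were seen; 1 gene that the rule named is not reported here. The comparison, its 34 gene lists and the rule were chosen with earlier results of these data known, and 2 lists were added later. Simulated counts (13172 genes, 200 changed) gave back 60% of 1.25-fold, 92% of 1.5-fold and 100% of 2-fold and 4-fold changes, with 10 unchanged genes among 186 calls. For the difference between arms (13215 genes), 28%, 76%, 94% and 100% came back, and 8 of 157 calls were unchanged genes. A comparison by coding length was planned and not run, since no protein table was used here; groups by mean level took its place. Alternatives were DESeq2 1.42.0, limma-voom (limma 3.58.1), other scalings and filters, no block, a shared replicate term, each library left out and libraries thinned to the lowest total.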

Additional observations from a re-analysis of the deposited data

Results flagged for a closer look

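The replicate difference of the inhibitor arm differed from that of the shRNA arm in 379 genes that were higher and 173 that were lower, by the test of the replicate term of the inhibitor arm minus that of the shRNA arm in edgeR (552 of 13306 genes, 4.15%). The 12 genes of smallest p in that test were picked out for a closer look because their replicate effect was not the same in both arms.

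On the higher side these were CCN2 with a log2 difference between arms of 1.90, MYOF with 1.44, GADD45B with 1.43, KRT17 with 1.19, PPP1R15A with 1.14 and MYBBP1A with 0.61. They bring together a YAP and TEAD readout, a membrane repair protein, a stress regulator, a keratin, a phosphatase subunit that restores translation and a nucleolar protein. MYBBP1A was at 350.3 against 232 CPM with inhibitors and 282 against 185 CPM in their control, replicate 2 against replicate 1, while the shRNA arm had 252 against 245 CPM with shNBD1 and 208 against 217 CPM in its control.

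On the lower side they were GPC3 with -0.59, FADS2 with -0.51, VCAN with -0.49, AMOT with -0.47, ZNF711 with -0.42 and COL2A1 with -0.42. COL2A1, the collagen of cartilage, was at 172 against 219.9 CPM with inhibitors and 252 against 325 CPM in their control, replicate 2 against replicate 1, while the shRNA arm had 316 against 301 CPM with shNBD1 and 374 against 359 CPM in its control. All 12 genes were also among the calls of the inhibitor arm alone, which uses 4 of the same libraries. DESeq2 called 74 genes higher and 21 lower for the difference between arms.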

How the results depend on the processing

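Over the edgeR scalings and filters, limma-voom, all 8 libraries and thinned libraries (chosen after seeing the data), between 1190 and 1541 genes were higher and between 883 and 1168 lower, against 1442 and 1106. DESeq2 gave 268 and 93, no treatment block 0 and 0, and a replicate term shared by both arms 0 and 0 (1452 and 931 at an unadjusted p under 0.05). Leaving out each library in turn gave 1026 to 1256 higher and 721 to 878 lower; each such value rests on the other pair, whose spread is assumed to be like that of the other groups. The difference between arms gave 346 to 433 higher and 176 to 214 lower under other scalings and filters, and 74 and 21 in DESeq2. Inhibitors against control gave 0 and 0, and 1360 and 1061 with the replicate block; nothing in the labels says that equal numbers share a culture. Without inhibitors 1 or inhibitors 2 signs turned for MTRNR2L5, MTRNR2L13, EGR1, FOS and JUN. Over the 4 libraries left out in turn, their log2 differences ran from -0.020 to 0.89 for MTRNR2L5, from -0.17 to 0.87 for MTRNR2L13, from -0.0101 to 0.75 for EGR1, from -0.0101 to 0.98 for FOS and from -0.10 to 0.23 for JUN. ASNS turned with DESeq2 (-0.0026), a shared replicate term (-0.035), thinned libraries (-0.034) and without control 1 or control 2, over a range of -0.13 to 0.12. With all 4 libraries only the MTRNR2L genes of these were called in the main fit, and the cause was not tested. With 2 libraries per number, changes near 1.25-fold were often missed on simulated counts, and recovery below a mean of 50 counts was not simulated.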
